A study of Mus musculus with 27 samples.

Results

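The effect of Kdm5b deletion during alcohol feeding was examined in livers of female mice. The comparison holds the 6 libraries labelled as female mice given a Western diet and alcohol to drink (WDA) that received either AAV8-CMV-Cre (KO, mice 1, 2 and 3) or AAV8-control (WT, mice 5, 6 and 7), out of 27 libraries in the series. All 6 mice carried floxed Kdm5b alleles (Kdm5b fl/fl) on a B6 background, and each library is the whole liver RNA of 1 mouse, so p-values measure the spread between mice. The labels give 8 weeks of WDA for these mice, while the study's methods describe a longer feeding time, and a supplementary legend of the study places the vector at the beginning of alcohol feeding. The methods name a green fluorescent protein vector as control, but the labels do not say which control vector was used. The CMV promoter is not restricted to a cell type, although serotype 8 AAV is taken up mainly by hepatocytes, so the label KO does not say in which liver cells the gene was cut. Values from 3 other sets are given for comparison. HepKO females on WDA received AAV8-TBG-Cre, whose promoter is active in hepatocytes, and share the WT females as controls. WDA males received the same 2 vectors as the WDA females. Res females received AAV-CMV-Cre or AAV-control after 16 weeks of WDA and were followed for 4 weeks of resolution without alcohol. During resolution the study fed mice chow and plain water, so the Western diet also ended.

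KDM5B is a histone demethylase that removes methyl groups from lysine 4 of histone H3 (H3K4), a mark of active promoters, and KDM5A and KDM5C are close relatives with the same substrate. In the liver, hepatocytes carry out lipid, drug and bile acid metabolism, stellate cells deposit scar matrix, and resident Kupffer cells and recruited macrophages clear debris and shape inflammation. Alcohol combined with a fatty diet leads to fat storage in hepatocytes, inflammation and scarring. Many genes of hepatocyte metabolism in mice also follow the sex-specific pulses of growth hormone, the time of day and feeding.

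Summed counts of the 6 libraries ranged from 16570678 to 18175886, and 12145 to 13286 genes had at least 10 counts in a library. The library of WT mouse 7 stood apart from the other 5. Its log2 CPM (CPM: counts scaled to a common library size with TMM factors) correlated with those of the other libraries at r = 0.922 to 0.928, while the other 5 correlated with each other at r = 0.980 to 0.988. In WT mouse 7, 212 genes lay more than 4-fold above every other library and 102 lay more than 4-fold below, against 0 or 1 and 0 to 9 genes in each of the other libraries. The biological coefficient of variation was 0.275 with all 6 libraries and 0.155 without WT mouse 7. All 12 hepatocyte markers were tested in the 6 libraries, and of the genes of the Y chromosome Ddx3y had 0 counts in all 6, Uty 0 to 3 and Eif2s3y 6 to 21.

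The genes that were high in WT mouse 7 included markers of scarring. Gpnmb, a glycoprotein of lipid-laden macrophages, had 274 CPM in WT mouse 7 and 0.81 to 2.88 CPM in the other libraries. The summed level of 14 scar-associated macrophage markers was 1696 CPM in WT mouse 7 and 130 to 159 CPM elsewhere. The 15 cholangiocyte (bile duct cell) markers summed to 648 CPM against 64.5 to 86.5 CPM, and the 20 stellate and matrix markers to 1328 CPM against 452 to 520 CPM. The 8 MHC class II genes, which present antigens, summed to 1159 CPM against 215 to 285 CPM. In the opposite direction, the 24 genes and pseudogenes of the Mup family (major urinary proteins made by hepatocytes) summed to 773 CPM against 13500 to 18610 CPM, and 20 genes of bile acid synthesis and transport to 2598 CPM against 6855 to 7240 CPM. The 9 Kupffer cell markers summed to 520 CPM in WT mouse 7 against 435 to 615 CPM, but members went both ways. Timd4 and Clec4f, markers of resident Kupffer cells, were lowest there, at 1.25 CPM against 5.93 to 11.1 CPM and 33.9 CPM against 70.8 to 127 CPM, while Cd5l and Marco were highest there. In whole liver RNA, a change in the number of cells of a type and a change in RNA per cell cannot be told apart.

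**Figure D1:**
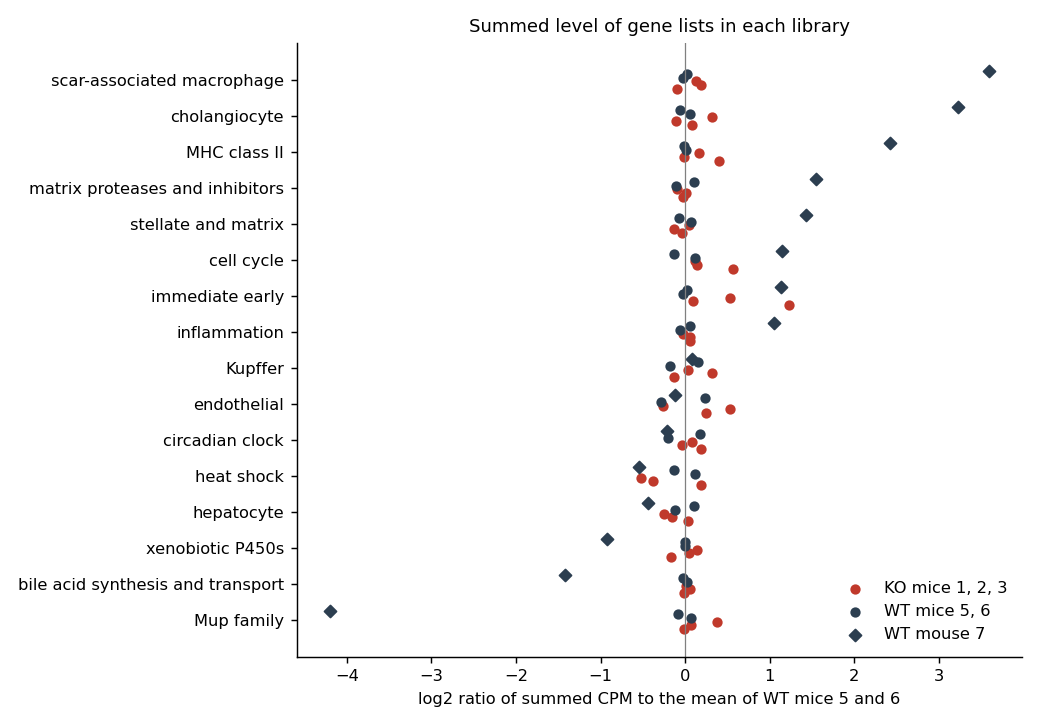
Summed CPM of 16 gene lists in each library, as the log2 ratio (x axis) to the mean of WT mice 5 and 6. Red circles are the 3 KO mice, dark circles WT mice 5 and 6, and dark diamonds WT mouse 7, which lies far to the right for the scar-associated macrophage list (1696 CPM) and far to the left for the Mup family (773 CPM).

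Kdm5b, the targeted gene (NCBI gene 75605; GRCm38.p6 chromosome 1, 134560178 to 134632878), was measured first. It had 25.2, 16.7 and 15.1 CPM in KO mice 1, 2 and 3 and 22.5, 26.5 and 33.8 CPM in WT mice 5, 6 and 7. KO mice 2 and 3 were below every WT mouse, but the library labelled KO mouse 1 lay within the WT range, so the groups overlapped. The log2 fold change, KO against WT, was -0.54 ± 0.24 (SE; n = 3 against 3; edgeR unadjusted p = 0.0569, adjusted p = 0.978), and -0.36 ± 0.22 without WT mouse 7 (edgeR unadjusted p = 0.144). These counts cover the whole gene, so reads from exons outside the floxed segment are included, and the segment itself is not given in the sources used here. The count therefore does not measure the extent of recombination, and the library labelled KO mouse 1 is kept in the KO group as its label says.

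The other H3K4 demethylases had no difference that passed the test. Kdm5a had 30.7, 38.2 and 37.3 CPM in the KO livers and 28, 28.8 and 39.3 CPM in the WT livers. The difference on the log2 scale was 0.14 ± 0.18 with 6 libraries and 0.32 ± 0.14 without WT mouse 7, where the edgeR unadjusted p was 0.0511. Kdm5c differed by -0.06 ± 0.17, with 94.8, 79.7 and 64 CPM in the KO livers and 82.4 to 83.3 CPM in the WT livers. Kdm1a encodes an H3K4 demethylase with another mechanism. It had 11.5 to 12.1 CPM in the KO livers and 12.8, 14.7 and 24.2 CPM in the WT livers. Its log2 fold change of -0.55 ± 0.24 (edgeR unadjusted p = 0.0569) became -0.22 ± 0.15 without WT mouse 7. On the deposited FPKM scale, which accounts for transcript length, Kdm5c was the most abundant of the 3 KDM5 genes in every library, at 9.25 to 15.3 FPKM. Kdm5b had 2.44 to 7.01 FPKM and Kdm5a 2.45 to 4.59 FPKM, ranges that overlap. Of 8 H3K4 demethylase genes, 0 had an unadjusted p under 0.05, and the list median was -0.07 with and without WT mouse 7. Of 12 genes of H3K4 methyltransferase complexes, 2 were higher in KO and 0 had an unadjusted p under 0.05. The lowest p among these 12 was that of Cxxc1, which targets the SET1 complex to CpG islands (log2 fold change -0.35 ± 0.15, edgeR unadjusted p = 0.0518).

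**Figure D2:**
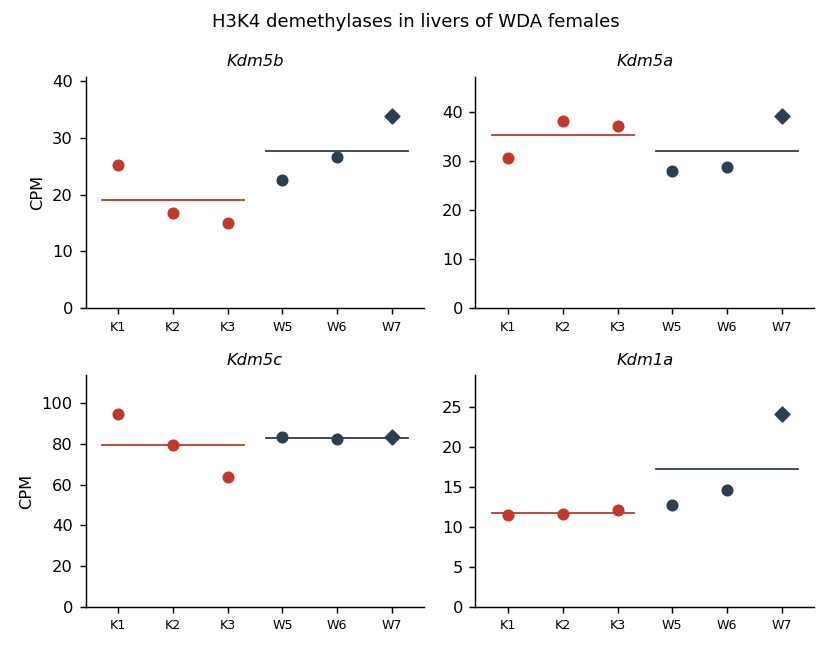
CPM (y axis, from 0) of 4 H3K4 demethylase genes in each library. Red circles are KO mice 1 to 3, dark circles WT mice 5 and 6, the diamond is WT mouse 7, and lines are group means; Kdm5b of KO mouse 1 (25.2 CPM) lies between WT mice 5 and 6.

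Across the 12397 genes tested, edgeR called 0 genes at an adjusted p under 0.05 (0% of genes), with 385 genes at an unadjusted p under 0.05. Of these, 174 were higher in KO (1.4% of genes) and 211 were lower (1.7%). The median log2 fold change of all genes was -0.02. Of the 12397 genes, 5764 were higher in KO with 6 libraries and 6381 without WT mouse 7. The list counts given below are to be read beside these values over all genes. KO and WT libraries did not overlap for 541 genes that were higher in KO (4.36%) and 567 that were lower (4.57%). In the 5 libraries without WT mouse 7, edgeR again called 0 of 12470 genes, the smallest adjusted p fell from 0.978 to 0.223, and the genes at an unadjusted p under 0.05 were 400 higher (3.21%) and 366 lower (2.94%). Of the 174 higher genes, 145 were also higher at this threshold without WT mouse 7, against 100 of the 211 lower genes. The DESeq2 Wald test called 8 genes with 6 libraries (0.0645%), 5 higher and 3 lower, and 34 without WT mouse 7 (0.273%), 23 higher and 11 lower. Gene-level differences given below are thus mostly differences with an unadjusted p, and DESeq2 calls are named where they exist.

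The heat shock gene Hspa1b (NCBI gene 15511; chromosome 17, 34956429 to 34959238) had the lowest p of the table in DESeq2 with 6 libraries and in edgeR without WT mouse 7. It encodes an inducible HSP70 chaperone, which refolds damaged proteins. It had 8.31, 6.71 and 5.04 CPM in the KO livers and 37.4, 22.1 and 17.3 CPM in the WT livers. All KO mice lay below all WT mice. The log2 fold change was -1.93 ± 0.33 (edgeR unadjusted p = 0.00049; DESeq2 adjusted p = 0.00123), and -2.14 ± 0.27 without WT mouse 7 (edgeR unadjusted p = 3.53e-05; DESeq2 adjusted p = 6.41e-09). The neighbouring and near-identical Hspa1a had 8 to 37 counts per library and overlapped between groups, and reads may be split between the pair. Bag3, a co-chaperone that links HSP70 to autophagy, had 29, 30.7 and 29.6 CPM in the KO livers and 41.8, 47.6 and 42.7 CPM in the WT livers, again without overlap. On the log2 scale the difference was -0.57 ± 0.12 (edgeR unadjusted p = 0.00172; DESeq2 adjusted p = 0.171) and -0.58 ± 0.12 without WT mouse 7.

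Other members of the heat shock list moved less, only without WT mouse 7, or in the other direction. Dnajb1, an HSP40 co-chaperone, had 17.8 to 20.4 CPM in the KO livers, 29.9 and 30.5 CPM in WT mice 5 and 6, and 16.3 CPM in WT mouse 7. The gene had a log2 difference of -0.42 ± 0.24 with 6 libraries and -0.65 ± 0.13 without WT mouse 7 (edgeR unadjusted p = 0.000865; DESeq2 adjusted p = 0.041). Dnaja1 behaved alike, at -0.24 ± 0.24 and -0.43 ± 0.16. The chaperones Hspa8, Hsp90aa1, Hsp90ab1, Hspb1 and Hsph1 overlapped between groups. Hspb1 was higher in KO, at 0.485 with 6 libraries and 0.359 without WT mouse 7, and Hsph1 was at -0.124 and -0.37. KO mouse 1 had the highest level of both, at 79.9 and 69.4 CPM. Of 13 members tested, 3 were higher in KO, 2 were lower at an unadjusted p under 0.05, and the median was -0.12, beside -0.02 for all genes. When WT mouse 7 was left out, 4 were lower at this threshold and the median was -0.33, beside 0.01 for all genes tested in both fits.

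Upstream sequences of 3 heat shock genes are shown because heat shock factor, which drives these genes, binds inverted repeats of the letters GAA. The sequences are the 250 bases before the gene start (RefSeq, GRCm38.p6), 5′ to 3′ on the strand of the gene, at chr17:34959239-34959488 (minus strand, Hspa1b), chr17:34972157-34972406 (minus strand, Hspa1a) and chr4:40722218-40722467 (plus strand, Dnaja1). The Dnaja1 entry shown is the one of 3 that holds a match. Capitals mark matches to GAANNTTC or TTCNNGAA, which read the same on both strands and may overlap each other.
Hspa1b: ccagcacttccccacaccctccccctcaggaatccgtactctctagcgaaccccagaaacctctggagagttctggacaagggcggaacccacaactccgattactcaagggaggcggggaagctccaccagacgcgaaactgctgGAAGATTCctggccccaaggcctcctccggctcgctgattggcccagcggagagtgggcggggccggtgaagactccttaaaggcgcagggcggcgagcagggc
Hspa1a: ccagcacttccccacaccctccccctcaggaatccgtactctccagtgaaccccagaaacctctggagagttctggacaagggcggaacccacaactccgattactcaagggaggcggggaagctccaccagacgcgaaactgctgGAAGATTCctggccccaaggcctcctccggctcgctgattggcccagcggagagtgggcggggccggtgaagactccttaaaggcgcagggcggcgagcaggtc
Dnaja1: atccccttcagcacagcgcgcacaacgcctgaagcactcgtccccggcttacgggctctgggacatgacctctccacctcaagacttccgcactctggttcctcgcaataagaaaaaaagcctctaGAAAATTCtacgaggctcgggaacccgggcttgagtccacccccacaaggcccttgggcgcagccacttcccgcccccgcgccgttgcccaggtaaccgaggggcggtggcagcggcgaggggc

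The Hspa1b and Hspa1a stretches differ at 3 of 250 bases and hold the same match, 8 bases long, starting at position -104 from the gene start. In windows from 250 bases before to 50 after the start, 8 of the 9 tested heat shock genes with an entry held a match (88.9%), against 17% of all 27025 genes with an entry. The list was written as heat shock genes, so this share does not measure an effect of the KO. Of the genes with a match, Hspb1 and Hspd1 were higher in KO with 6 libraries (0.485 and 0.164), and the others were lower. Bag3 held its match at position 42 inside the transcript, and Dnajb1 held none. Among genes lower in KO at an unadjusted p under 0.05 the share was 13% of 162 genes with an entry, and among those higher 10.7% of 140, against 14.1% of the 9922 genes tested that had an entry. A match is a run of letters and not a measured binding site.

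The remaining genes lower in KO by DESeq2 were Ints6 and B4galt5. Ints6 (chromosome 14, 62676325 to 62761163) encodes a subunit of the Integrator complex, which processes nascent RNA at RNA polymerase II. It had 8.68, 12.5 and 11 CPM in the KO livers and 20.2, 28.2 and 24.3 CPM in the WT livers. The groups did not overlap, and the log2 fold change was -1.18 ± 0.19 (edgeR unadjusted p = 0.000426; DESeq2 adjusted p = 0.00766) and -1.17 ± 0.20 without WT mouse 7. B4galt5 (chromosome 2, 167298444 to 167349178), a galactosyltransferase that makes lactosylceramide, had 26.3 to 29.9 CPM in the KO livers and 43.7 to 58 CPM in the WT livers. Its log2 fold change was -0.82 ± 0.15 (edgeR unadjusted p = 0.000763; DESeq2 adjusted p = 0.0228) and -0.68 ± 0.12 without WT mouse 7. In both genes WT mouse 7 lay on the side of the other WT mice, at 24.3 and 58 CPM.

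Of the 5 genes that DESeq2 called higher in KO, P2ry14 and Arl4a are taken first. P2ry14 (chromosome 3, 59114623 to 59153492), a receptor for UDP-glucose, had 8.43, 10.5 and 12.1 CPM in the KO livers and 5, 4.58 and 3.47 CPM in the WT livers. The difference on the log2 scale was 1.26 ± 0.23 (edgeR unadjusted p = 0.000894; DESeq2 adjusted p = 0.0225) and 1.12 ± 0.21 without WT mouse 7. Arl4a (chromosome 12, 40033291 to 40037987), a small GTPase of the ARF family, had 156, 105 and 111 CPM in the KO livers and 60.4 to 67.3 CPM in the WT livers, with a log2 difference of 0.95 ± 0.19 (DESeq2 adjusted p = 0.0225). For both genes every KO mouse lay above every WT mouse.

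**Figure D3:**
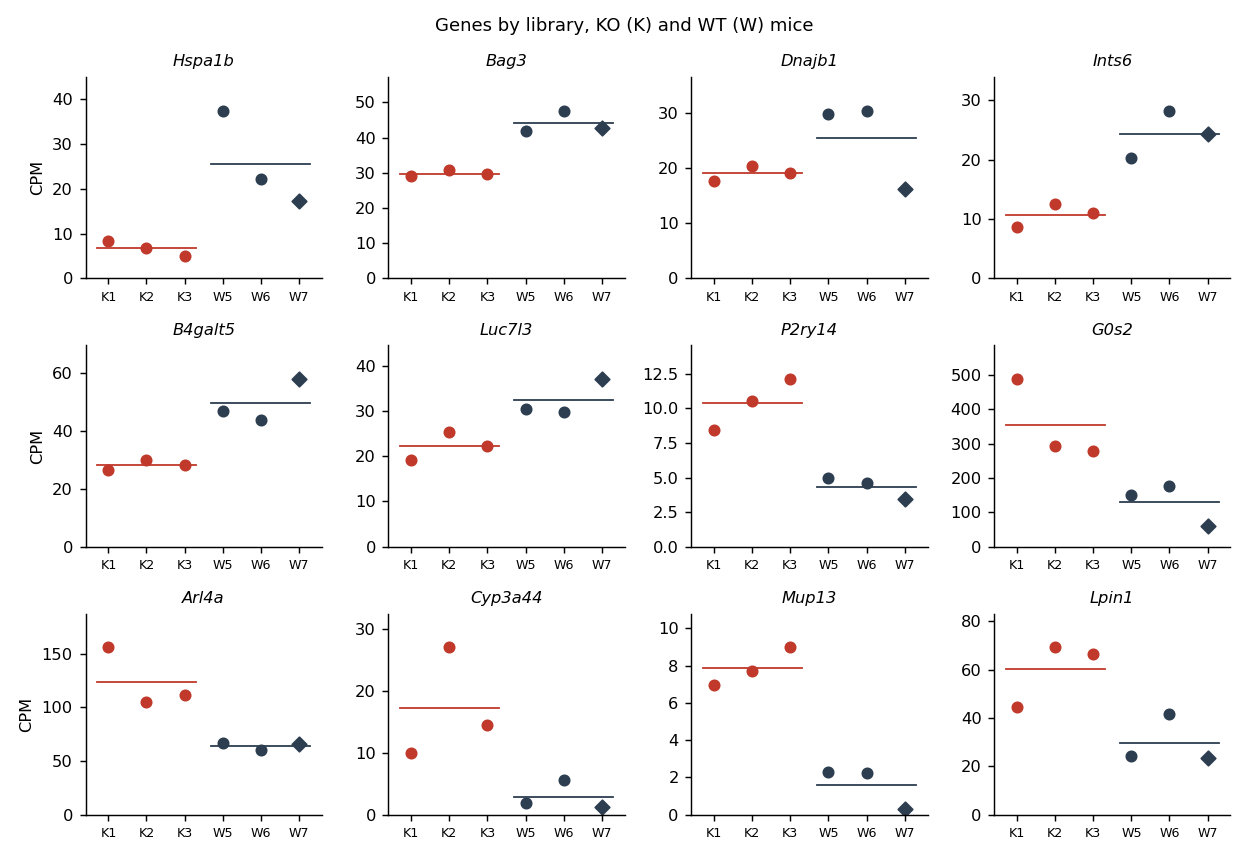
CPM (y axes, each from 0) of 12 genes in each library, with KO mice (K1 to K3, red), WT mice (W5 to W7, dark; W7 as a diamond) and group means as lines. Dnajb1 is the gene shown whose groups overlap, through WT mouse 7 at 16.3 CPM.

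Cytochrome P450 genes of the Cyp3a family, which oxidise steroids and drugs, were also among these calls. Cyp3a44 had 10.1, 27.1 and 14.5 CPM in the KO livers and 1.87, 5.63 and 1.2 CPM in the WT livers. The gene had a log2 difference of 2.58 ± 0.62 (edgeR unadjusted p = 0.00378; DESeq2 adjusted p = 0.0257) and 2.20 ± 0.52 without WT mouse 7, where DESeq2 no longer called it (adjusted p = 0.385). Cyp3a16 had 15, 65 and 34 counts in the KO livers and 2, 5 and 0 counts in the WT livers, so its log2 fold change of 4.01 ± 0.91 (DESeq2 adjusted p = 0.0321, and 0.0153 without WT mouse 7) rests on few reads. Cyp3a41a was the most abundant of the 3, with 258, 486 and 381 CPM in the KO livers and 23.9, 133 and 4.91 CPM in the WT livers, with a log2 difference of 2.80 ± 1.02 and of 2.26 ± 0.62 without WT mouse 7 (edgeR unadjusted p = 0.0275 and 0.00628). These paralogs are close in sequence, and reads may be split between them. The main hepatic member, Cyp3a11, overlapped between groups (4899 to 6739 CPM in the KO livers and 3581 to 6062 CPM in the WT livers). The family was taken as a list after values of its members were seen, and it holds the genes above, so its counts are not separate evidence. All 9 members of the family were higher in KO with 6 libraries, 4 of them at an unadjusted p under 0.05. Of these 9, 8 were higher without WT mouse 7, 4 of them at this threshold. The family summed to 4133 CPM in WT mouse 7 and 6420 to 8423 CPM in the other libraries.

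These Cyp3a genes are also members of the list of female-biased liver genes, which are more abundant in female than in male mice. Of 15 members, 13 were higher in KO, 5 of them at an unadjusted p under 0.05, 1 was lower at this threshold, and the median was 0.63. In the fit without WT mouse 7, 11 were higher, 6 and 1 passed the threshold in the 2 directions, and the median was 0.69. Cyp17a1, an enzyme of androgen synthesis, had 135, 166 and 132 CPM in the KO livers and 64.4, 115 and 94.4 CPM in the WT livers (log2 fold change 0.66 ± 0.23). Sult1e1, the estrogen sulfotransferase, was not on the list and was chosen after its values were seen, with 49, 83 and 53 counts in the KO livers and 16, 16 and 3 counts in the WT livers. Cux2, a female-specific repressor in hepatocytes, was the member lower in KO at an unadjusted p under 0.05. It had 0.485, 1.97 and 0.729 CPM in the KO livers and 1.56, 8.1 and 3.32 CPM in the WT livers, groups that overlap. Cyp2b9 and Cyp2b13 had their lowest level in WT mouse 7, and 10 of the 15 members lay below 50% of every other library in WT mouse 7. Cyp2a4 had its highest level there, at 1345 CPM, and its log2 fold change was 0.28 ± 0.41 with 6 libraries and 0.90 ± 0.18 without WT mouse 7 (DESeq2 adjusted p = 0.0031).

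The Mup genes were described after their values were seen. Of 21 members tested, 20 were higher in KO with 6 libraries, with a median of 0.78, but this count rests on WT mouse 7. Without it, 14 were higher, the median was 0.21, and 7 were higher at an unadjusted p under 0.05. Mup13 had 6.98, 7.7 and 8.99 CPM in the KO livers, 2.31 and 2.23 CPM in WT mice 5 and 6, and 0.289 CPM in WT mouse 7, with a log2 difference of 2.31 ± 0.62 and of 1.80 ± 0.22 without WT mouse 7 (DESeq2 adjusted p = 3.85e-06). Mup17 had 407, 399 and 570 CPM in the KO livers and 187 and 173 CPM in WT mice 5 and 6, with a log2 difference of 1.36 ± 0.18 without WT mouse 7. Mup11 and Mup15 differed by 1.06 ± 0.15 and 1.15 ± 0.18 in the same fit, and DESeq2 called all 4 genes there. The most abundant members, Mup22 and Mup19, differed by 0.08 and 0.38 in this fit, with 6672 to 8070 CPM of Mup22 in the KO livers and 6989 and 6612 CPM in WT mice 5 and 6. Mup3 and Mup20 were at -0.31 and -0.47. The Mup genes are nearly identical to each other, so the level of a single member is uncertain. The 12 tested male-biased liver genes, which include some of the Mup genes, had a median of 0.25 with 6 libraries and 0.09 without WT mouse 7.

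G0s2, Lpin1 and Insig2 were higher in KO at an unadjusted p under 0.05 with and without WT mouse 7, and G0s2 was the gene of these that DESeq2 called, without that library. G0s2, an inhibitor of the triglyceride lipase ATGL, had 489, 292 and 280 CPM in the KO livers and 150, 178 and 59.9 CPM in the WT livers. Its log2 fold change was 1.45 ± 0.42 (edgeR unadjusted p = 0.0101) and 1.12 ± 0.25 without WT mouse 7 (DESeq2 adjusted p = 0.00802). Lpin1, a phosphatidate phosphatase and coactivator, had 44.5, 69.4 and 66.7 CPM in the KO livers and 24.4, 41.5 and 23.6 CPM in the WT livers, with a log2 difference of 1.01 ± 0.27 and of 0.88 ± 0.26 without WT mouse 7. Insig2, which retains SREBP in the endoplasmic reticulum, had 1446, 1619 and 1941 CPM in the KO livers and 868 to 1206 CPM in the WT livers (0.64 ± 0.23). For each of these genes the KO mice lay above all WT mice.

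Pdk4, a kinase that restrains glucose oxidation, had 154, 49.8 and 40.2 CPM in the KO livers and 20.6 to 31.9 CPM in the WT livers (log2 fold change 1.59 ± 0.51, edgeR unadjusted p = 0.0155). The library labelled KO mouse 1 was the highest, as it was for the kinase Pim3, with 144, 42.5 and 30.8 CPM in the KO livers and 17.2 to 24.2 CPM in the WT livers. Cd36, a fatty acid transporter, differed by 0.38 ± 0.15, and Ppp1r3g, a glycogen-targeting subunit of a phosphatase, by 2.69 ± 0.78 with 4.86 to 22.9 CPM in the KO livers and 0.626 to 4.5 CPM in the WT livers. In the lipid droplet and lipolysis list, 14 of 17 tested members were higher, 1 of them at an unadjusted p under 0.05, with a median of 0.21 with and without WT mouse 7. In the fatty acid oxidation and ketogenesis list, 22 of 25 were higher, 2 of them at this threshold, but the median of 0.23 became 0.06 without WT mouse 7, in which the summed level of the list was 18480 CPM against 29560 to 43630 CPM. In the lipogenesis list, 15 of 21 were higher, 2 of them (Lpin1 and Insig2) at this threshold, and the median moved from 0.15 to 0.03. Of 20 glucose metabolism genes, 0 passed this threshold. Pck1, the key enzyme of gluconeogenesis, had 3293 to 3534 CPM in the KO livers and 2022 to 2801 CPM in the WT livers without overlap, with a log2 difference of 0.45 ± 0.23 (edgeR unadjusted p = 0.0937).

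Genes of the circadian clock differed in both directions, and the hour of collection of each liver was not given in the sources used here. Of 19 members, 12 were higher in KO, 3 of them at an unadjusted p under 0.05, and 1 was lower at this threshold, with a median of 0.08. Per1, a repressor of the clock that also responds to glucocorticoids, had 43, 25.2 and 24.4 CPM in the KO livers and 14.1, 19.4 and 16 CPM in the WT livers (log2 fold change 0.90 ± 0.25, edgeR unadjusted p = 0.00832). Per2, its paralog, went the other way, with 5.64, 7 and 4.55 CPM in the KO livers and 7.31, 19 and 11.3 CPM in the WT livers (-1.12 ± 0.36). Npas2, a partner of BMAL1, had 14.6 to 20.1 CPM in the KO livers and 4.28 to 13.6 CPM in the WT livers. The output factor Dbp set WT mouse 6 apart, at 34.3 CPM against 3.31 to 5.28 CPM in the other 5 libraries. WT mouse 6 was also the highest of the 6 for Per2, Per3, Nr1d1 and Tef and the lowest for Arntl and Npas2.

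Immediate early genes, which respond within minutes to growth factors and stress, had a median of 0.25 over 16 tested members and 0.69 without WT mouse 7, where 14 were higher in KO and 5 passed an unadjusted p under 0.05. With 6 libraries, 1 was higher and 1 lower at this threshold. Ier2 had 17.7, 17 and 24.4 CPM in the KO livers and 13.3 to 14.6 CPM in the WT livers (log2 fold change 0.49 ± 0.17). Btg2, an antiproliferative gene induced by p53, had 64.4, 31 and 38 CPM in the KO livers, 11.9 and 13.3 CPM in WT mice 5 and 6, and 87.8 CPM in WT mouse 7. The difference on the log2 scale was 0.24 ± 0.76 with 6 libraries and 1.83 ± 0.31 without WT mouse 7 (DESeq2 adjusted p = 3.85e-06). The summed level of the list was 547, 249 and 338 CPM in the KO livers and 231, 236 and 514 CPM in the WT livers, so the library labelled KO mouse 1 and that of WT mouse 7 were the highest.

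Among 22 splicing factors and CLK kinases, 4 were lower in KO and 1 was higher at an unadjusted p under 0.05 and had no overlap between groups, with a list median of -0.15. Of all genes, 1.7% were lower and 1.4% higher at this threshold. Luc7l3, a component of the U1 snRNP, had 19.2, 25.3 and 22.2 CPM in the KO livers and 30.4, 29.7 and 37.1 CPM in the WT livers (log2 fold change -0.54 ± 0.16, edgeR unadjusted p = 0.00986). Tra2a, an SR-like splicing activator, had 18.1, 15.7 and 15.2 CPM in the KO livers and 22.4, 20.7 and 27 CPM in the WT livers (-0.51 ± 0.15). Srsf5, an SR protein, was the higher member, with 239, 176 and 182 CPM in the KO livers and 133, 124 and 146 CPM in the WT livers (0.57 ± 0.17). Leaving out WT mouse 7, the 3 genes differed by -0.43, -0.39 and 0.64 on the log2 scale, each at an unadjusted p under 0.05.

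In the glutathione and NRF2 list, 3 of 19 tested members were lower in KO at an unadjusted p under 0.05 and 0 were higher, with a median of -0.14. Nfe2l2, which encodes the antioxidant regulator NRF2, had 33.6, 64 and 62.5 CPM in the KO livers and 71.1, 84 and 112 CPM in the WT livers (log2 fold change -0.74 ± 0.29), and its edgeR unadjusted p went from 0.034 to 0.0688 without WT mouse 7. Gstm1, a glutathione transferase, had 763, 647 and 778 CPM in the KO livers and 1074, 1243 and 872 CPM in the WT livers (-0.54 ± 0.21), and -0.66 ± 0.14 without WT mouse 7, where DESeq2 called it (adjusted p = 0.0144). Gstm3 had 12.1, 13.8 and 15.1 CPM in the KO livers, 18.4 and 18.1 CPM in WT mice 5 and 6, and 83.7 CPM in WT mouse 7, so that its log2 fold change was -1.55 ± 0.60 with this library and -0.41 ± 0.15 without it.

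The study asks whether KDM5B affects fibrosis and inflammation, and many transcripts of both depended on WT mouse 7. The chemokine Cxcl10 moved less. It had 2.79, 1.04 and 2.37 CPM in the KO livers and 3.81, 3.11 and 5.78 CPM in the WT livers, without overlap. Its log2 difference was -1.04 ± 0.43 (edgeR unadjusted p = 0.0441) and -0.74 without WT mouse 7 (edgeR unadjusted p = 0.091). Cxcl1, another chemokine, overlapped between groups and was at -1.17 and -0.84. Col1a1, the main scar collagen, had 3.82, 2.37 and 3.83 CPM in the KO livers, 3.43 and 4.17 CPM in WT mice 5 and 6, and 75.8 CPM in WT mouse 7. On the log2 scale the difference was -3.06 ± 1.19 (edgeR unadjusted p = 0.0352) with 6 libraries and -0.18 ± 0.28 without WT mouse 7. Mmp12, a macrophage elastase, had 1.46 to 2.31 CPM in the KO livers, 2.31 and 3.29 CPM in WT mice 5 and 6, and 112 CPM in WT mouse 7, so its log2 fold change of -4.31 ± 1.5 became -0.50 ± 0.31. The cytokine Tnf, the protease inhibitor Timp1 and the collagenase Mmp13 did not pass the filter on low counts, with 4 to 6, 1 to 4 and 0 to 2 counts per library outside WT mouse 7, which had 34, 86 and 61 counts. Tgfb1 had 7.77 to 10.5 CPM in the KO livers and 6.37, 10 and 23 CPM in the WT livers (log2 fold change -0.56 ± 0.44, and 0.13 without WT mouse 7). Ccl2, a monocyte chemokine, was below all WT mice in every KO mouse, at 0.868 to 1.27 CPM against 1.29 to 4.14 CPM, and its log2 difference of -1.08 ± 0.51 became -0.34 ± 0.33 without WT mouse 7. Its receptor Ccr2 overlapped between groups and went from -1.57 ± 0.90 to 0.29 ± 0.44. The gelatinase Mmp9 also overlapped, at 0.18 ± 0.52 and 0.60 ± 0.49.

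The lists showed the same dependence. Of 14 scar-associated macrophage markers, 0 were higher and 8 were lower at an unadjusted p under 0.05 with 6 libraries, and the median was -1.99. When WT mouse 7 was left out, 1 was lower at this threshold and the median was -0.03. That member was Gpnmb, with 1.21, 0.81 and 1.09 CPM in the KO livers and 2.44 and 2.88 CPM in WT mice 5 and 6 (log2 fold change -1.34 ± 0.30, edgeR unadjusted p = 0.00199). The median of 20 stellate and matrix markers moved from -1.07 to -0.03, of 8 cholangiocyte markers tested from -1.35 to -0.19, of 9 matrix proteases and inhibitors from -1.23 to -0.12, of 8 MHC class II genes from -1.17 to 0.14, and of 19 cell cycle genes from -0.68 to 0.06. The median of 13 inflammation genes moved from -0.59 to 0.02. The 9 Kupffer cell markers had a median of 0.21 in both fits, with 0 and 2 members higher at an unadjusted p under 0.05, and the 12 endothelial markers 0.20 and 0.25. The 10 lowest genes of the table with no overlap between groups included Adam8, Epcam, Cd63, Olfml3, Smoc2, Col6a2 and Itga8 beside Gpnmb, Mmp12 and Hspa1b, and of these Gpnmb and Hspa1b kept an unadjusted p under 0.05 without WT mouse 7.

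**Figure D4:**
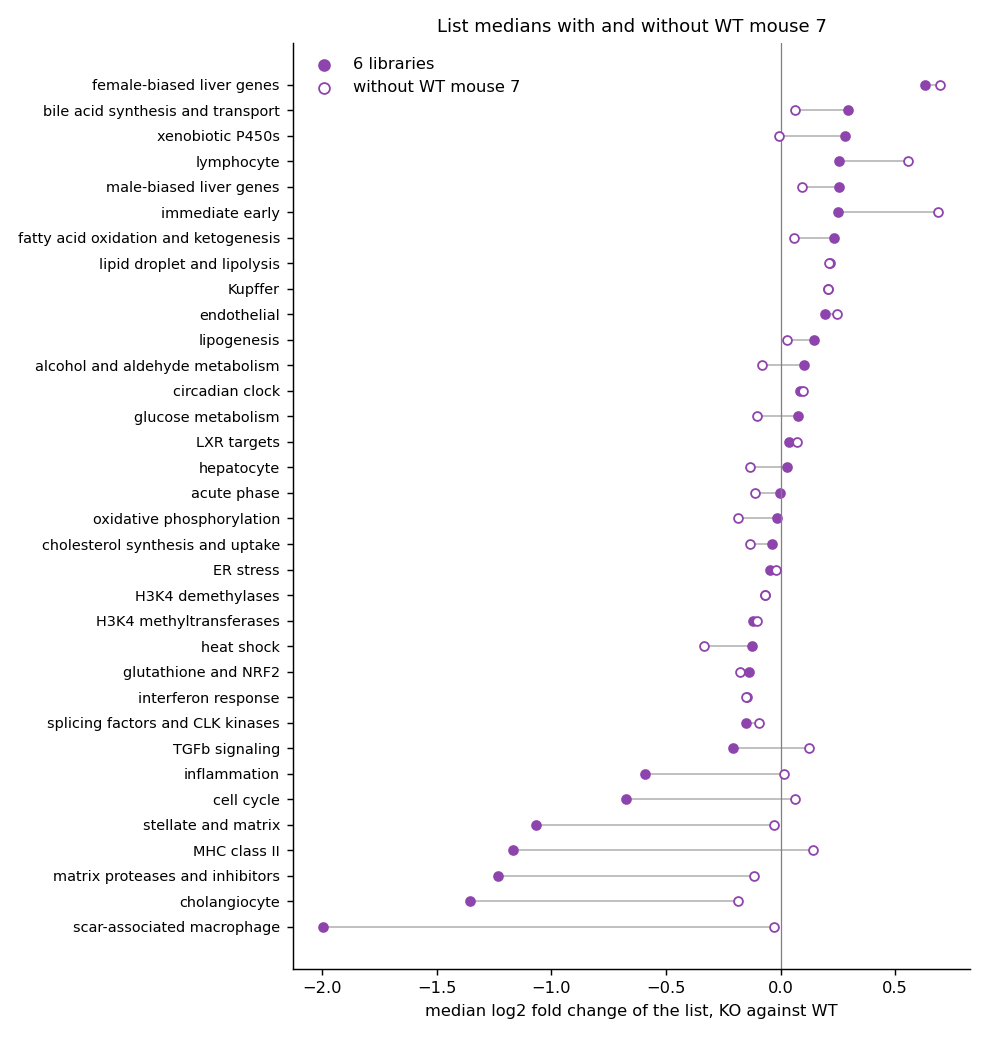
Median log2 fold change (x axis, KO against WT) of each list with at least 8 tested genes, with 6 libraries (filled) and without WT mouse 7 (open). The scar-associated macrophage list moves from -1.99 to -0.03, while the female-biased list stays at 0.63 and 0.69.

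The liver X receptors (LXR), nuclear receptors that drive cholesterol efflux and lipogenesis, were also addressed by the study. It reports a rise of multiple LXR target genes in KO mice during resolution, and a less pronounced one on WDA. In Res females, 17 of the 20 LXR targets listed here were higher in KO, with a median of 0.20, and 0.23 without Res WT mouse 13. The values below are those of WDA females. Of 20 LXR targets, 13 were higher in KO and 0 had an unadjusted p under 0.05 with 6 libraries, with a median of 0.04. In the fit without WT mouse 7, 12 were higher, 2 were lower at this threshold, and the median was 0.07. Nr1h3, which encodes LXRα, had 66.8 to 83.1 CPM in the KO livers and 57.7 to 85.5 CPM in the WT livers. The efflux pump Abca1 had 284, 329 and 485 CPM in the KO livers and 302 to 367 CPM in the WT livers (log2 fold change 0.17 ± 0.24), and Srebf1, the lipogenic regulator, 326, 157 and 234 CPM and 190 to 214 CPM (0.25 ± 0.26). Abcg1 differed by -0.66 ± 0.48 with 38.2 CPM in WT mouse 7, and by 0.14 without it. Fasn, Cyp27a1 and Apoe differed by 0.07 ± 0.29, 0.29 ± 0.28 and 0.04 ± 0.34, and without WT mouse 7 by -0.16 ± 0.20, 0.03 ± 0.11 and -0.20 ± 0.15, so Fasn and Apoe turned sign. Apoc1 and Apoc3 are apolipoproteins that slow the clearance of triglyceride-rich particles. They were the 2 LXR targets lower at an unadjusted p under 0.05 without WT mouse 7. Their values in that fit were -0.33 ± 0.14 and -0.43 ± 0.13 (edgeR unadjusted p = 0.0477 and 0.0116). With WT mouse 7 they were -0.03 ± 0.36 and -0.14 ± 0.33.

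Of the remaining lists, xenobiotic P450 genes had 21 of 24 members higher with 6 libraries and 12 of 24 without WT mouse 7, with medians of 0.28 and -0.01. Genes of bile acid synthesis and transport went from 17 of 20 higher to 13 of 20, and genes of alcohol and aldehyde metabolism from 10 of 13 to 4 of 13. The 25 ER stress genes had a median of -0.05 and -0.02, the 22 acute phase genes 0.00 and -0.11, the 23 interferon response genes -0.15 in both fits, the 24 genes of cholesterol synthesis and uptake -0.04 and -0.13, and the 20 oxidative phosphorylation genes -0.01 and -0.19. The 18 TGFβ signaling genes tested had medians of -0.21 and 0.12. Of these, Smad7 was lower in KO in both fits, at -0.63 ± 0.18 and -0.50 (edgeR unadjusted p = 0.0101 and 0.0197). It had 7.87 to 9.89 CPM in the KO livers and 11.5 to 15.8 CPM in the WT livers. Summed levels of lymphocyte and neutrophil markers were 7.06 to 12.3 CPM and 3.56 to 18.2 CPM, and those of erythroid markers 212 to 463 CPM, with the lowest in WT mouse 7.

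The DESeq2 test without WT mouse 7 was chosen after the data were seen, and its 34 calls held genes whose groups overlapped through this library. Apoa4, an apolipoprotein of fat-loaded hepatocytes, had with a log2 difference of 0.74 ± 0.13 (DESeq2 adjusted p = 8.22e-06). Cidec, a lipid droplet protein, differed by 1.09 ± 0.25 (DESeq2 adjusted p = 0.0109), Slc25a30, a mitochondrial carrier, by 0.99 ± 0.19, and Tubb2a, a tubulin, by 1.2 ± 0.26. S1pr1, a sphingosine-1-phosphate receptor of endothelium, was lower, at -0.72 ± 0.15 (DESeq2 adjusted p = 0.00218). WT mouse 7 had the highest level of the 6 libraries for the first 4 of these genes and the lowest for S1pr1. Of these 34 calls edgeR called 0 at an adjusted p under 0.05 in the same 5 libraries, and the WT group then held 2 mice.

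The KO effect was then set beside that in other mice. HepKO females share the WT mice, so their values are given side by side with no test of likeness. In HepKO against WT without WT mouse 7, the log2 fold changes were -3.20 for Hspa1b, -0.72 for Bag3, -1.46 for Ints6, -0.60 for B4galt5, 1.58 for P2ry14, 0.78 for Arl4a, 1.08 for G0s2, 1.79 for Lpin1 and 2.85 for Mup13. Kdm5b differed by -0.81 in this comparison.

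Res females share no library with the WDA females, and a library there, WT mouse 13, also stood apart, with 120 genes more than 4-fold above the other 5. In Res females 946 genes were higher (7.52%) and 1467 lower (11.7%) at an unadjusted p under 0.05 in KO. Kdm5b differed by -0.55 ± 0.13 there (edgeR unadjusted p = 0.00265). Hspa1b differed by -4.32 ± 1.15 (edgeR unadjusted p = 0.00547), Ints6 by -1.12 ± 0.23 (0.00115), Bag3 by -0.75 ± 0.24 (0.015), Luc7l3 by -0.94 ± 0.21 (0.00236) and Nfe2l2 by -1.59 ± 0.41 (0.0044). Scaled over all 27 libraries, Hspa1b had 1.86, 43.8 and 6.66 CPM in Res WT mice 1, 12 and 13. Res KO mice had 0.345 to 1.33 CPM, so the size of this difference leaned on WT mouse 12. Among genes higher in WDA KO females, Mup13 differed by 4.22 ± 0.96 (0.00227), Lpin1 by 1.45 ± 0.48 (0.0159), Pdk4 by 0.99 ± 0.31 (0.0118) and Per1 by 0.85 ± 0.33 (0.0327). Mup13 was at the floor in Res WT mice, with 0 to 0.497 CPM against 2.2 to 4.88 CPM in Res KO mice on the same scale. Lpin1 overlapped there, with 553, 161 and 729 CPM in Res KO mice and 224, 136 and 164 CPM in Res WT mice. P2ry14, G0s2, Cyp3a44 and Cyp3a41a were at 0.48 ± 0.36, 0.48 ± 0.38, 0.92 ± 0.60 and 0.49 ± 0.66, and Gm29667 and Gm14296, 2 predicted genes higher in WDA KO females, were at -0.75 ± 0.57 and -0.70 ± 0.37. Cyp3a16 was at 1.72 ± 0.63 (edgeR unadjusted p = 0.0251). Without Res WT mouse 13, P2ry14, G0s2, Cyp3a44 and Cyp3a41a were at 0.25, 0.13, 0.43 and 0.05. Cyp3a16 was then at 1.25, Gm29667 at -0.32, and B4galt5 moved from -0.76 to -0.42. Hspa1b, Ints6, Mup13, Lpin1, Luc7l3 and Nfe2l2 were at -4.70, -0.96, 3.60, 1.42, -0.84 and -1.40 without that library.

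Across genes, those higher in WDA KO females at an unadjusted p under 0.05 and tested in Res females were also higher there for 141 of 171 (82.5%, against 47.6% of all genes), and those lower were lower for 176 of 207 (85%, against 52.2%). Without WT mouse 7 of WDA and WT mouse 13 of Res, the counts were 310 of 393 (78.9%, against 50.6%) and 215 of 365 (58.9%, against 49.4%), and Spearman's rho across 12308 genes was 0.254. Of the lists, 14 of 22 splicing factors were lower in Res KO females at an unadjusted p under 0.05 (4 in WDA females), 13 of 21 Mup genes were higher (1, and 7 without WT mouse 7), and 14 of 24 ER stress genes tested were lower (0 in WDA females). Genes are not independent replicates, and libraries of both sets with scarring transcripts were WT. The test of the difference itself, an interaction of KO and stage in edgeR, called 0 of 12940 genes, with 804 at an unadjusted p under 0.05 (6.21%) and a smallest adjusted p of 0.782. Stage, diet and experiment coincide in this design and cannot be told apart.

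In WDA males, the library of KO mouse 17 stood apart, with 138 genes more than 4-fold above the other 5 and 148 CPM of Gpnmb, so that the library with scarring transcripts was KO in males and WT in females. Across genes, Spearman's rho between the KO effects of females and males was -0.422 over 12192 genes with all libraries, 0.179 without WT mouse 7, and 0.038 over 12244 genes without WT mouse 7 and male KO mouse 17. Kdm5b differed by -0.16 in males (edgeR unadjusted p = 0.116). Ints6 was at -0.32, Hspa1b at -0.63, Bag3 at -0.32, B4galt5 at 0.17, P2ry14 at 0.56, Arl4a at 0.26, G0s2 at -0.47, Lpin1 at -0.14 and Insig2 at -0.25 on the log2 scale. Without male KO mouse 17, B4galt5 was at -0.12 and Lpin1 at 0.27, both with the sign turned, Hspa1b at -0.28, Bag3 at -0.19, G0s2 at -0.12, Ints6 at -0.38, P2ry14 at 0.67, Arl4a at 0.26 and Insig2 at -0.17. Some genes higher in KO females were also higher in KO males, namely Cyp3a41a at 4.37 (edgeR unadjusted p = 0.0213), Ppp1r3g at 2.27 (edgeR unadjusted p = 0.0454) and Cd36 at 0.59 (edgeR unadjusted p = 0.00377). Without male KO mouse 17 these were at 4.75, 2.79 and 0.60. On the scale of all 27 libraries, male Cyp3a41a was near the floor. It had 13, 2.09 and 0.36 CPM in KO mice 16, 17 and 18 and 0 to 0.601 CPM in WT mice, groups that overlap. Ppp1r3g also overlapped, with 3.52 to 49.9 CPM in KO males and 2.81 to 10.3 CPM in WT males. Cd36 did not overlap (242 to 263 CPM against 146 to 194 CPM). The interaction of KO and sex called 0 of 12895 genes in edgeR, with 1470 at an unadjusted p under 0.05 (11.4%), 393 higher and 1077 lower in females relative to males. Without WT mouse 7 there were 665 such genes, and without WT mouse 7 and male KO mouse 17 there were 924, 437 higher and 487 lower. For Ints6, the interaction was -0.83 ± 0.23 (edgeR unadjusted p = 0.00431, adjusted p = 0.43) and -0.79 without both libraries (unadjusted p = 0.0116 in edgeR).

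**Figure D5:**
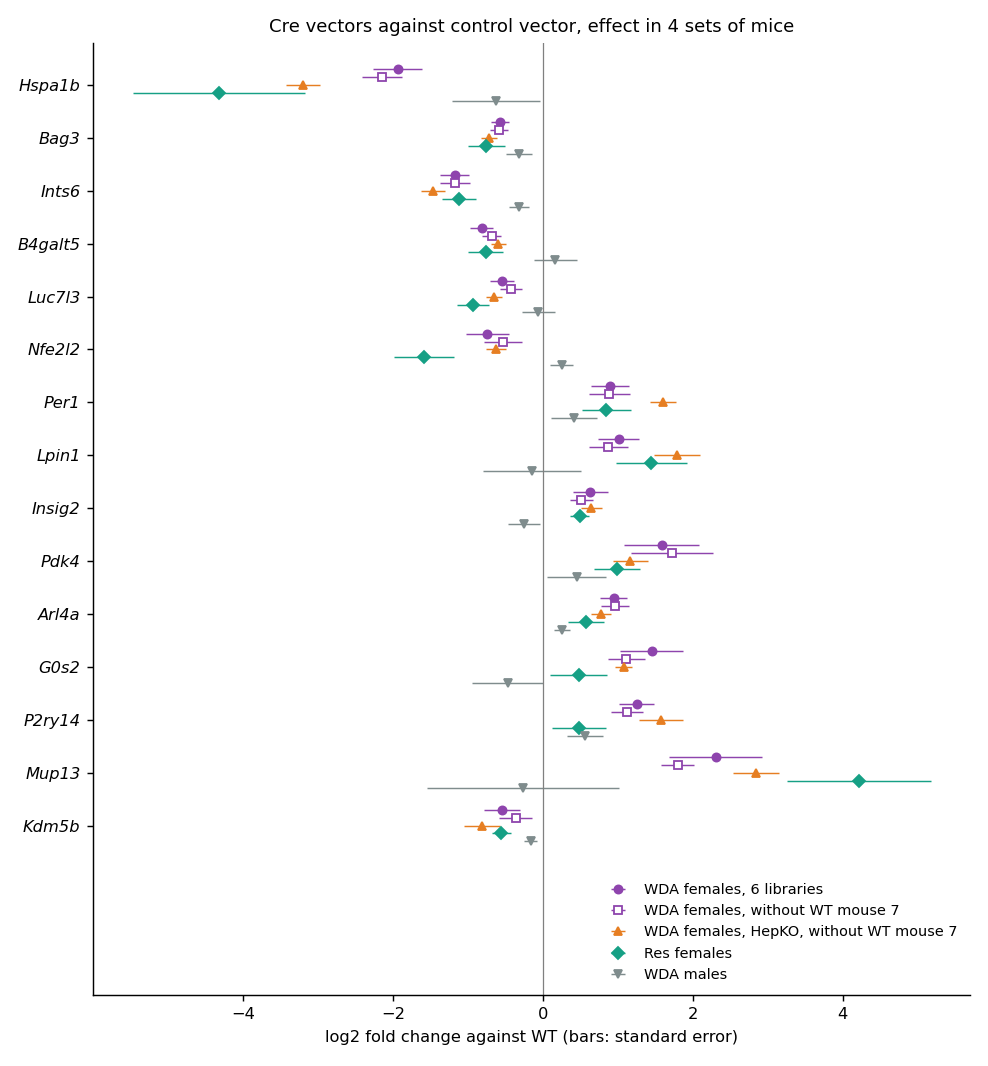
Log2 fold change against WT (x axis; bars are standard errors) of 15 genes in WDA females with 6 libraries and without WT mouse 7, in HepKO females (which share the WT mice), in Res females and in WDA males. Hspa1b lies at -1.93, -2.14, -3.20, -4.32 and -0.63 in this order.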

How the data were processed

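RNA from whole liver was sequenced by a commercial service (BGI), with 1 library per mouse. Per the submitters' processing notes, HISAT, Bowtie2 and the build GRCm38.p6 were used, with versions not given in the sources used here. The authors deposited, per gene and library, an expected count (estimated count) without normalization, made by a counting tool not given in the sources used here, and an FPKM value scaled by length and library total. Of the counts, 7.51% in the table of the WDA females were not whole, and counts were rounded before testing. FPKM was used for levels between genes and for a check of fold changes, with a Spearman's rho of 0.983 to those from counts across 12397 genes and the same sign in 82% (pseudocount 0.1).

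Genes were filtered with filterByExpr (minimum count 10), scaled with TMM, and tested with glmQLFit and glmQLFTest of edgeR 4.0.16 in R 4.3.3, with Benjamini-Hochberg adjustment over all genes tested at 0.05. DESeq2 1.42.0 and limma 3.58.1 (voom with sample weights) were alternatives. Interactions were contrasts of 4 groups, and genes absent from 1 of the tables entered with 0 counts. The size of each difference divided by the square root of its F statistic gave the standard error. Of the genes tested, 12346 matched a RefSeq gene by NCBI gene number. The tests were tried on simulated data.

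The libraries, gene lists and rules were chosen with earlier results of these data known, and lists are described by counts and medians, with no set test. Named genes were Kdm5a, Kdm5b and Kdm5c, genes past an adjusted p in edgeR or DESeq2, the 10 highest and 10 lowest fold changes among genes with an unadjusted p under 0.05, an average log2 CPM of 2 or more and groups without overlap, the genes the study names for fibrosis, inflammation and LXR, and the 3 members of a list with the lowest p. Other genes named were chosen after their values were seen. Exact permutation of 3 against 3 mice has a smallest p of 0.1, so single values were not tested in this way. A few genes that meet these rules are not reported here.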

Additional observations from a re-analysis of the deposited data

Results flagged for a closer look

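Of the named genes, Mup7 had KO and WT libraries that did not overlap in WDA females and in WDA males, in opposite directions. Its log2 fold change was 1.35 ± 0.82 in females, 0.79 without WT mouse 7, and -0.67 in males, -0.11 without male KO mouse 17. The difference between the sexes was 2.05 on the log2 scale, and the interaction did not pass the test (edgeR unadjusted p = 0.183, adjusted p = 0.577). WT mouse 7 had 2 counts of this gene against 35 to 87 in the other females. Male KO mouse 17 had 472 CPM against 16150 to 17990 CPM in the other 5 males, and Mup genes share reads with near-identical copies. The part of these in the difference was not tested. With 3 mice per group, no group was large enough for a test of single outlying libraries.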

How the results depend on the processing

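No paired analysis was possible because the KO mice (1, 2 and 3) and the WT mice (5, 6 and 7) share no number. For KO against WT, the 0 edgeR calls became 8 with DESeq2, 1 (Ints6) with the spread shared by all 5 WDA groups, and 34 with DESeq2 without WT mouse 7. The 385 genes at an unadjusted p under 0.05 became 1112 with voom, 744 with the spread of the 3 female WDA groups, 792 with that of all 5 groups, and 233 to 766 when 1 library was left out. The share that was higher, 45.2%, became 28.9% with library totals, 34.6% without a filter, 23.5% without WT mouse 5 and 28.4% without WT mouse 6, and library totals moved the median of all genes from -0.02 to -0.13. The interaction with stage had 1 DESeq2 call, and its 804 genes became 1532 with voom and 491 to 1240 when 1 library was left out. The interaction with sex had 10 DESeq2 calls, and its 1470 genes became 665 to 2152, and 924 without WT mouse 7 and male KO mouse 17. Leaving out 1 library at a time turned the sign of Kdm5c (-0.21 to 0.073), Tgfb1 (-0.88 to 0.13), Mmp9 (-0.26 to 0.60), Ccr2 (-2.08 to 0.29), Nr1h3 (-0.10 to 0.17), Abca1 (-0.086 to 0.32), Abcg1 (-0.96 to 0.14), Apoe (-0.20 to 0.22), Apoc1 (-0.33 to 0.17), Apoc3 (-0.43 to 0.10), Fasn (-0.16 to 0.32), Srebf1 (-0.034 to 0.50), Scd2 (-1.44 to 0.26) and Lpl (-1.918 to 0.34). Library totals turned Mmp9 (-0.005), Nr1h3 (-0.047) and Apoe (-0.024), and voom turned Ccr2 (0.48), Nr1h3 (-0.10), Abcg1 (0.079), Apoe (-0.19), Fasn (-0.12), Scd2 (0.14) and Lpl (0.25). The causes were not tested. Depth limits genes with few counts, and without WT mouse 7 the WT group held 2 mice.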
